A study of Mus musculus with 10 samples.

Results

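The 57 genes described here carry fatty acids through a cell, from their release and uptake at the cell surface, through storage as triglyceride and sterol ester in lipid droplets, to oxidation in mitochondria. They were chosen by name as rows of a table of 38962 genes, 14 of them for uptake, 17 for storage, 22 for oxidation and 4 as regulators, and all 57 were among the 22088 genes with enough counts to be tested. RNA was taken from pulverized femurs that the study describes as flushed of marrow, of male mice of strain C57BL/6J at 2 months (young, n = 5) and at 22 months (aged, n = 5), with 1 library per mouse and neither a genetic change nor a treatment named for either group. The young mice were bought from the Jackson Laboratory. The aged mice came, already aged, from the colony of the National Institute on Aging and were kept to 22 months in the investigators' facility. Supplier and age therefore cannot be told apart. The comparison addresses whether the bone of aged mice handles lipid differently, which the study approached through lipid droplets, lipid content, fuel use and this same RNA-seq. Its own test, DESeq2, listed Lpl, Acadm, Mlycd and Ppargc1a among the genes higher in aged bone, which did not pass the test described below.

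Fatty acids reach cells as free acids bound to albumin or within lipoproteins, whose triglyceride is cut by lipases at the vessel wall. Inside the cell they are joined to coenzyme A and either esterified and stored in droplets coated by perilipins, or passed by the carnitine shuttle into mitochondria and shortened in the cycle of beta-oxidation. Peroxisome proliferator-activated receptors (PPARs) are nuclear receptors that bind fatty acids and raise transcription of many genes of this pathway. Osteoblasts, the cells that form bone, can burn fatty acids, and skeletal muscle and marrow adipocytes use the same genes heavily.

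PPARs bind paired copies of the hexamer AGGTCA, and the promoters of the members were searched for it because several members are known PPAR targets. Promoters were those of RefSeq on GRCm38.p6, 250 bases before to 50 bases after the start of transcription, and 46 of the 57 members had an entry. On either strand the hexamer stood in 9 of these 46 (19.6%) and in 16.0% of the promoters of 27025 genes. The direct repeat AGGTCANAGGTCA, of which the hexamer is a part, stood with up to 2 mismatches in 5 of 46 (10.9%, Plin2, Cd36, Echs1, Etfa and Slc25a20) and in 3.81% of all. Of the 8 matched members that passed the test of age described below, 1 held the hexamer and 0 the repeat, and the promoters of Angptl4, Dgat1 and Soat2 were not among those matched. Upstream sequences of 3 members are shown for contrast, a gene that fell with age and held no match, a gene that rose and held the hexamer, and a gene that held the repeat and did not pass. Each is the minus strand of GRCm38.p6, 5′ to 3′, and ends at the base before the start, with capitals marking the hexamer or the repeat.
Lipc, chr9:70952222-70952471: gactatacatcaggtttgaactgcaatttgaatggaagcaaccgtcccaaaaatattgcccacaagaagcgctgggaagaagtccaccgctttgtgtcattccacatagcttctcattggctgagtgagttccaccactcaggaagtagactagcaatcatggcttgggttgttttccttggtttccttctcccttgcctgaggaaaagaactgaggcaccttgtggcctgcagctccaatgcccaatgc
Plin5, chr17:56117549-56117798: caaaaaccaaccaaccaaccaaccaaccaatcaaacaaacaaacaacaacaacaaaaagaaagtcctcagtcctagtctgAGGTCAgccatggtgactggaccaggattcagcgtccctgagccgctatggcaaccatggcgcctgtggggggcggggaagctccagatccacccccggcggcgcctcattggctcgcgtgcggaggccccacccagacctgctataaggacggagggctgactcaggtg
Plin2, chr4:86670060-86670309: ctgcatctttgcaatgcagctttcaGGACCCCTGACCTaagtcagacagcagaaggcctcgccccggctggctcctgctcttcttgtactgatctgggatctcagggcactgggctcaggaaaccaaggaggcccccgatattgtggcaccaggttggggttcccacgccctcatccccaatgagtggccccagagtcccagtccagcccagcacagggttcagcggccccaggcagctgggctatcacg
Plin5 carried a lone hexamer, while the repeat of Plin2, on the opposite strand, began 225 bases before the start. These matches describe letters in the window, and binding of a receptor was not measured.

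The libraries held 31788232 to 45075335 counts. Of the counts, osteoblast markers made up 7.14% ± 1.40 (SD, n = 5) in young bone and 2.71% ± 0.993 (SD, n = 5) in aged bone, and the 2 groups did not overlap (two-sided exact permutation test, p = 0.00794, the smallest that 126 splits can give). Skeletal muscle markers took 2.85 to 6.60% of the counts in young libraries and 3.97 to 9.35% in aged ones, with means of 4.83% ± 1.62 and 6.96% ± 2.13 (two-sided exact permutation test, p = 0.103). Of the 29 muscle markers tested, 0 passed edgeR's test and 10 were higher when p was left unadjusted (under 0.05, where 13.3% of all tested genes were higher), at a median log2 fold change of 0.62 over the list, while Tnnc2, on the list but below the filter, was at 0.255 CPM in young and 0.382 CPM in aged bone. A single noncoding gene, Gm26917, took 14.5 to 24.0% of young and 16.1 to 31.0% of aged libraries and did not pass, and with it left out of the total the muscle shares were 3.33 to 8.24% and 5.75 to 13.3%. Markers of slow muscle fibres took 0.0144 to 0.0287% of young and 0.0120 to 0.224% of aged libraries, with aged 1 the highest (two-sided exact permutation test, p = 0.0794), and of its 10 genes 0 passed, with 7 higher at unadjusted p below 0.05. Adipocyte markers took 0.0394 to 0.0681% in young and 0.0358 to 0.0817% in aged bone, without a difference past the threshold (exact permutation, two-sided p = 0.722). Car3 (325 and 377 CPM) made up most of this sum, so the share and its p say little of the other adipocyte markers. Of the 15 tested, 14 had a positive log2 fold change, with a median of 0.51, and Lipe passed. The brown fat genes Ucp1 and Cidea were at 0.0360 and 0.180 CPM in young bone. RNA of blood-forming cells was present, with red cell precursor markers at 0.84% ± 0.34 of young and 0.58% ± 0.35 of aged counts, and neutrophil markers at 0.25% ± 0.067 and 0.29% ± 0.18. Macrophage markers took 0.0728 to 0.0941% of young and 0.0366 to 0.122% of aged libraries, with aged 2 and aged 4 the highest. In whole tissue, fewer cells of a type and less RNA per cell cannot be told apart.

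Levels are given in CPM, counts relative to the total of the library after scaling by the trimmed mean of M values (TMM), as mean ± SD over 5 mice. Differences are the log2 fold change of aged over young, followed where given by ± its standard error. A gene passed where the p of the quasi-likelihood test of edgeR, adjusted by Benjamini-Hochberg over 22088 genes, was at most 0.05. Of the 57 members, 9 were higher in aged bone, 2 were lower and 46 did not pass, while 3.68% of all tested genes were higher and 3.61% were lower. At an unadjusted p under 0.05, 20 members were higher and 2 lower, beside 13.3% and 12.4% of all genes. Every aged library lay above every young one in 3 members and below in 2 members, and in 3.68% and 4.12% of all genes. The log2 fold change was positive in 45 members (78.9%), with a median of 0.29, and in 50.9% of all genes, with a median of 0.0077. The members were chosen with earlier results of these same libraries known. These counts and shares are therefore a description and no independent support. By step, 1 higher and 2 lower genes were among the 14 of uptake, 4 higher and 0 lower among the 17 of storage, and 3 higher and 0 lower among the 22 of oxidation. Of the 4 grouped as regulators, 1 was higher, the peroxisome gene Pex11a, and 0 were lower. The count of higher members was 1 without young 1, 2 without young 2, young 3, young 4 or aged 3, 4 without aged 1 or aged 5, 6 without young 5 or aged 2 and 7 without aged 4, and it was 1 when libraries were scaled by total counts alone. The calls over the whole table moved as well, its 812 higher genes becoming 560 without young 1, 300 without young 2, 636 without young 3, 366 without young 4, 470 without aged 3 and 624 without aged 5, between 804 and 856 without each other library, and 285 with total counts alone. The count of lower members was 2 without each library in turn.

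**Figure D1:**
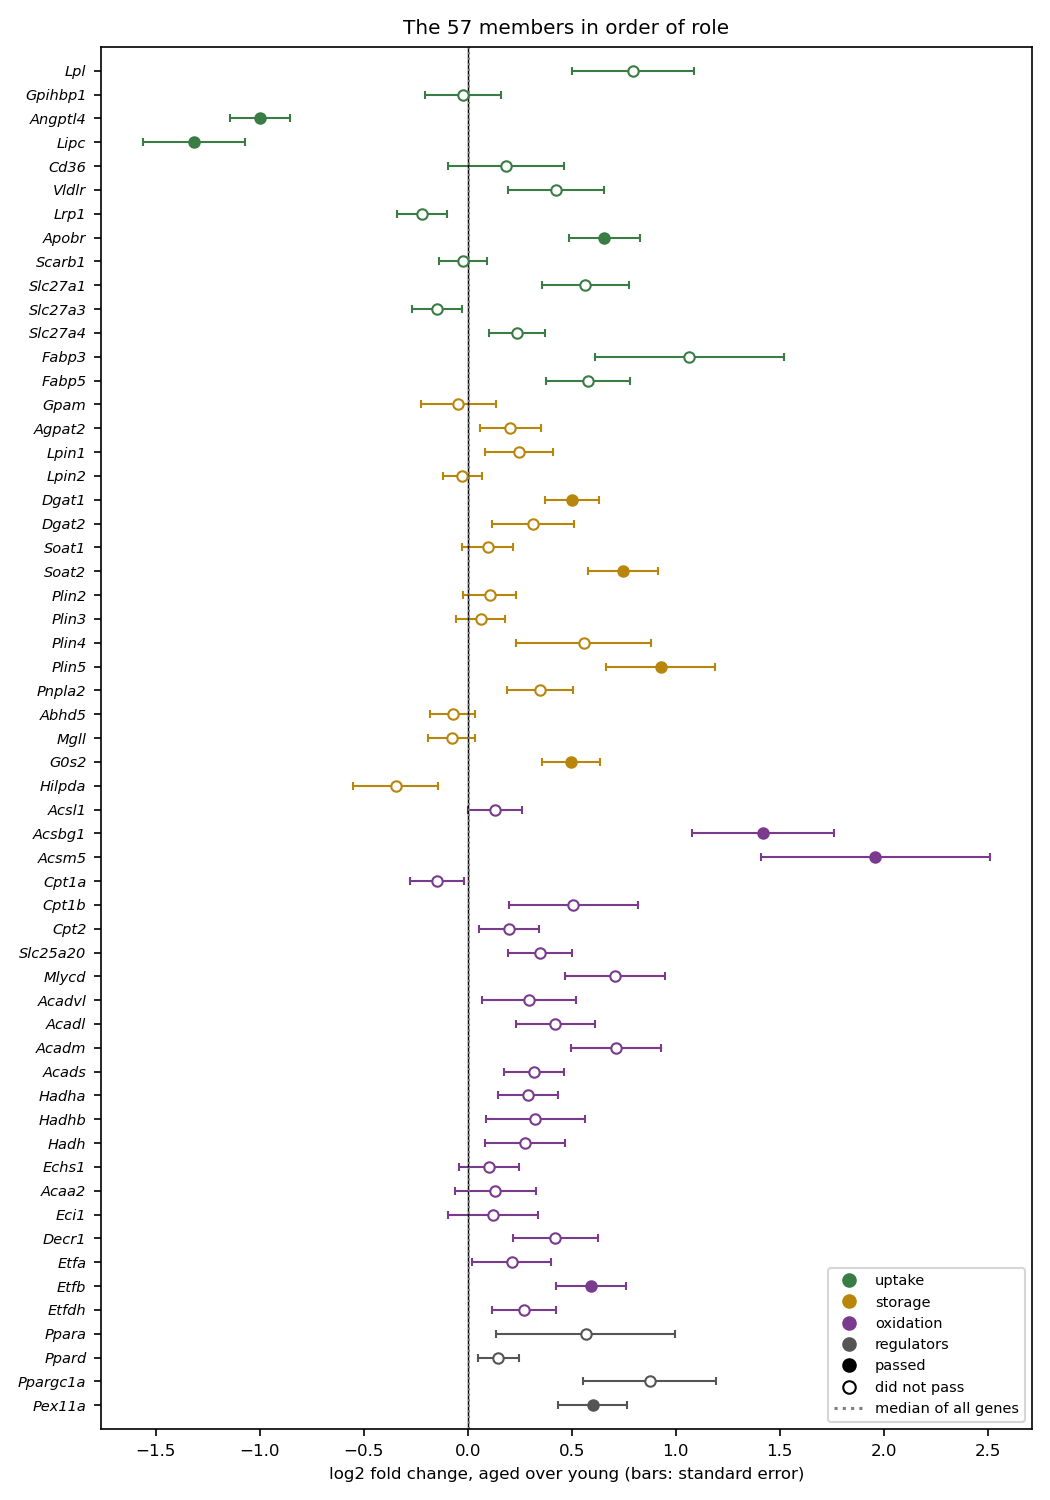
The log2 fold change of each of the 57 members (x axis, aged over young) is drawn in order of role, with bars of 1 standard error and filled points for members that passed edgeR's test. Angptl4 at -0.998 and Lipc at -1.32 lie left of 0, 45 members lie right of 0, and the dotted line marks the median of all tested genes.

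Among the genes of the lipase system, the lipase gene Lipc and the lipase inhibitor gene Angptl4 fell in aged bone. Angptl4 (chr17:33773750-33781830, GRCm38) encodes a secreted protein that inactivates lipoprotein lipase and is a known target of PPARs. Its level was 10.7, 10.5, 10.8, 12.1 and 10.5 CPM in young 1 to 5 and 5.40, 4.24, 5.31, 7.48 and 4.99 CPM in aged 1 to 5. Every aged library was below every young one, and the young libraries lay within a narrow range. The mean went from 10.9 ± 0.666 to 5.48 ± 1.20 CPM (log2 fold change -0.998 ± 0.14, adjusted p = 0.00153, edgeR). Lipc (chr9:70798128-70952226) encodes hepatic lipase, which acts on the triglyceride and phospholipid of lipoproteins and is best known from liver. It was at 14.9, 11.2, 11.6, 11 and 7.83 CPM in young 1 to 5 and at 4.45, 4.74, 2.58, 3.45 and 7.36 CPM in aged 1 to 5. The groups did not overlap, with young 5 and aged 5 the closest to each other. The mean fell from 11.3 ± 2.51 to 4.51 ± 1.81 CPM (log2 fold change -1.32 ± 0.25, adjusted p = 0.00792, edgeR). The noncoding gene Gm32017, which lies across 3943 bases of Lipc on the other strand, had a log2 fold change of -1.32 as well (edgeR adjusted p = 0.00641), and since the use of strand in counting is not known, reads of the 2 genes cannot be told apart. Both Angptl4 and Lipc passed in 22 of 22 alternative analyses. None of these had the osteoblast markers, whose share of counts also fell, as a covariate, and a link to that fall was not tested.

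Lpl (chr8:68880491-68907448), which encodes lipoprotein lipase, did not pass. It was at 74.5, 139, 137, 64.5 and 90.0 CPM in young 1 to 5 and at 289, 119, 194, 114 and 160.1 CPM in aged 1 to 5, so that aged 2 and aged 4 lay within the young range and aged 1 stood highest. The means were 101 ± 35.0 and 175 ± 71.7 CPM (log2 fold change 0.79 ± 0.29, adjusted p = 0.120, edgeR), and over the alternatives the adjusted p ran from 0.0383 with DESeq2 to 0.479 with the slow fibre markers as a covariate. Gpihbp1, whose protein anchors lipoprotein lipase on the capillary wall, was at 6.19 ± 1.44 and 6.10 ± 1.19 CPM (log2 fold change -0.02 ± 0.18). Lpl over Angptl4 within each library (0.5 counts added to each gene) was 6.92, 13.2, 12.7, 5.33 and 8.56 in young 1 to 5 and 53.5, 27.9, 36.4, 15.2 and 32.0 in aged 1 to 5. The groups of this ratio did not overlap, as those of Angptl4 alone did not, and the pair was chosen with both directions known, so it is a description with no test. Lpl over Gpihbp1 was 11.6 to 23.0 in young and 19.2 to 51.4 in aged libraries, with overlap. Of 12 ratios of members taken, none is given a test, since the smallest p of this design, 0.00794, becomes 0.0952 for a single ratio adjusted over 12.

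**Figure D2:**
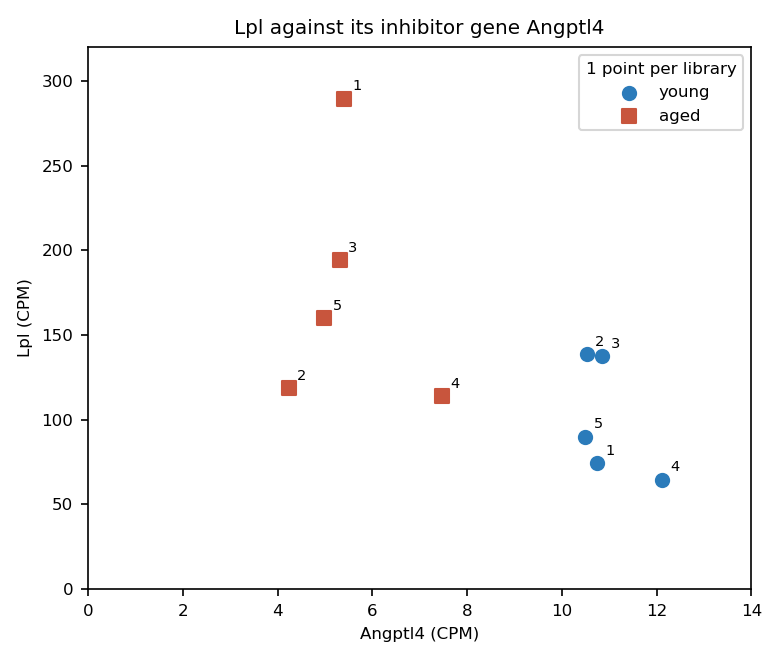
Each point is 1 library, with Angptl4 in CPM on the x axis and Lpl in CPM on the y axis. The 5 aged libraries lie left of 8 CPM of Angptl4 and the 5 young ones right of 10, while along Lpl the groups overlap, with aged 1 at 289 CPM the highest.

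Of the 5 receptors of lipoproteins and fatty acids, only Apobr passed. Apobr (chr7:126584942-126589112) encodes a receptor that takes up triglyceride-rich lipoproteins and is known from macrophages. Young 1 to 5 had 28.6, 20.2, 26.7, 29.6 and 21.8 CPM of it, and aged 1 to 5 had 28.6, 46.3, 38.5, 54.5 and 32.1 CPM. Aged 1 lay within the young range and the other aged libraries above it. Its mean rose from 25.4 ± 4.17 to 40 ± 10.5 CPM (log2 fold change 0.66 ± 0.17, adjusted p = 0.0362, edgeR), and with 1 library left out at a time it passed only in the absence of aged 1 or aged 5 (adjusted p up to 0.0999, edgeR). The neighbouring gene Cln3, which overlaps Apobr by 876 bases on the other strand, also passed (log2 fold change 0.51, adjusted p = 0.0241, edgeR), so the level of Apobr is uncertain. Lrp1, an endocytic receptor of lipoprotein remnants and many other ligands, had the highest level per kilobase of the members in young bone (42.8 CPM per kilobase) and did not pass. It was at 770.0, 676, 779, 756 and 812 CPM in young 1 to 5 and at 575, 735, 564, 701 and 680.0 CPM in aged 1 to 5, with overlap between the groups (log2 fold change -0.22 ± 0.12). Cd36, the fatty acid translocase, was at 60.6 ± 15.3 and 68.8 ± 27.4 CPM, with its highest and its lowest value both in aged libraries (106 CPM in aged 1 and 29.1 CPM in aged 4). The log2 fold change was 0.43 for Vldlr, the receptor of very low density lipoproteins, and -0.02 for Scarb1, the receptor of high density lipoproteins.

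None of the 5 genes of fatty acid transport and binding passed, and 4 had a positive log2 fold change. Slc27a1, which encodes a fatty acid transporter of muscle and fat, was at 33.1, 33.3, 45.2, 23.9 and 39.5 CPM in young 1 to 5 and at 55.7, 36.5, 75.9, 39.0 and 51.9 CPM in aged 1 to 5 (log2 fold change 0.57 ± 0.21, adjusted p = 0.116, edgeR). Aged 2 and aged 4 lay within the young range, and aged 3 and aged 1 stood highest. Fabp3, the fatty acid binding protein of heart and muscle, was at 17.4 ± 8.24 and 36.4 ± 18.1 CPM, where aged 4 (8.69 CPM) lay among the lowest libraries (log2 fold change 1.07 ± 0.45, adjusted p = 0.168, edgeR). Fabp5, the binding protein of epidermis and macrophages, was at 4.29 ± 0.559 and 6.37 ± 2.23 CPM (log2 fold change 0.58 ± 0.20, adjusted p = 0.0935, edgeR), and its aged mean was raised by aged 2 at 10.2 CPM. The transporter genes Slc27a3 and Slc27a4 had log2 fold changes of -0.15 and 0.24.

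In the synthesis of triglyceride and sterol ester, Dgat1 and Soat2 rose and the other 6 of 8 genes did not pass. Dgat1 (chr15:76502015-76511953) encodes an enzyme of the last step of triglyceride synthesis. Its level was 49.1, 49.4, 42.6, 45.0 and 48.2 CPM in young 1 to 5 and 51.8, 60.6, 74.1, 86.2 and 58.8 CPM in aged 1 to 5. All aged libraries lay above all young ones, aged 1 by the smallest margin. The mean rose from 46.9 ± 2.98 to 66.3 ± 13.8 CPM (log2 fold change 0.50 ± 0.13, adjusted p = 0.0327, edgeR), while Dgat2, which encodes an unrelated enzyme of the same step, was at 16.2 ± 5.22 and 20.2 ± 3.60 CPM (log2 fold change 0.31 ± 0.20). The call of Dgat1 ended without young 1, young 2, young 3, young 4, aged 3 or aged 4 (adjusted p up to 0.0861, edgeR). Soat2 (chr15:102150526-102163469) encodes an enzyme that esterifies cholesterol and is known from liver and intestine. Young 1 to 5 had 3.46, 2.37, 3.43, 3.21 and 3.47 CPM of it and aged 1 to 5 had 4.17, 4.85, 6.91, 5.98 and 4.86 CPM. The groups did not overlap, and the mean rose from 3.19 ± 0.471 to 5.35 ± 1.08 CPM (log2 fold change 0.74 ± 0.17, adjusted p = 0.0185, edgeR). Its call ended only without young 2 among the 10 fits that left out a library (edgeR adjusted p = 0.0567). Soat1, the more widely expressed enzyme of the same reaction, was at 5.23 CPM per kilobase in young bone, where Soat2 was at 1.44 CPM per kilobase, and its log2 fold change was 0.09. Lpin2, a phosphatidate phosphatase gene, was at 139.9, 125, 118, 151 and 125 CPM in young 1 to 5 and at 129, 121, 134, 135 and 127 CPM in aged 1 to 5, all aged values lying within the young range. Gpam and Agpat2, of the acyl transfers that open the pathway, and Lpin1 had log2 fold changes of -0.05, 0.20 and 0.25.

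Among the perilipins, the coat proteins of lipid droplets, Plin5 rose and Plin2, Plin3 and Plin4 did not pass. Plin5 (chr17:56111601-56117596) encodes the perilipin of oxidative tissue, which holds droplets close to mitochondria. Its level was 2.39, 4.79, 3.33, 1.86 and 3.56 CPM in young 1 to 5 and 6.01, 4.99, 9.07, 4.01 and 6.28 CPM in aged 1 to 5. Aged 4 lay below young 2, and the other aged libraries stood above all young ones. The mean rose from 3.18 ± 1.13 to 6.07 ± 1.90 CPM (log2 fold change 0.93 ± 0.26, adjusted p = 0.0480, edgeR), and with 1 library left out at a time it passed only in the absence of young 2 or aged 4 (adjusted p up to 0.106, edgeR). Plin4, the perilipin of fat and muscle, was at 32.1, 57.6, 49.0, 28.7 and 94.6 CPM in young 1 to 5 and at 94.9, 59.4, 113, 52.1 and 66.4 CPM in aged 1 to 5, with wide overlap (log2 fold change 0.56 ± 0.32, adjusted p = 0.304, edgeR). Plin2, the perilipin found on the droplets of most cells, was at 26.4 ± 1.76 and 28.4 ± 5.67 CPM (log2 fold change 0.10 ± 0.13), and the widely expressed Plin3 at 19.9 ± 2.32 and 20.7 ± 2.83 CPM (log2 fold change 0.06 ± 0.12). Per kilobase, young bone held 1.53 CPM of Plin5 and 7.53 CPM of Plin2. Within libraries, Plin5 over Plin2 was 0.0688 to 0.175 in young and 0.109 to 0.356 in aged bone, with overlap.

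Of the 5 genes of lipolysis, the inhibitor gene G0s2 rose and the lipase genes did not pass. G0s2 (chr1:193272161-193273217) encodes a small protein that blocks the adipose triglyceride lipase, the enzyme encoded by Pnpla2. It was at 4.39, 6.32, 3.78, 5.14 and 5.05 CPM in young 1 to 5 and at 6.91, 7.0, 7.67, 6.82 and 6.50 CPM in aged 1 to 5. The groups did not overlap, although young 2 came close to aged 5. The mean rose from 4.93 ± 0.951 to 6.98 ± 0.427 CPM (log2 fold change 0.50 ± 0.14, adjusted p = 0.0491, edgeR), and with 1 library left out at a time it passed only in the absence of young 2 (adjusted p up to 0.105, edgeR). G0s2 lies within Lamb3 on the other strand along all its 1057 bases, so that its counts may include reads of that gene, whose own log2 fold change was 0.06 (edgeR adjusted p = 0.835). Pnpla2 was at 53.7 ± 13.7 and 68.3 ± 9.35 CPM (log2 fold change 0.35 ± 0.16, adjusted p = 0.190, edgeR). Mgll, the lipase of monoglycerides, was at 66.9, 69.7, 61.0, 75.9 and 86.7 CPM in young 1 to 5 and at 67.0, 79.4, 69.3, 57.6 and 68.1 CPM in aged 1 to 5. Abhd5, the activator of the adipose lipase, and Hilpda, another of its inhibitors, had log2 fold changes of -0.07 and -0.35.

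**Figure D3:**
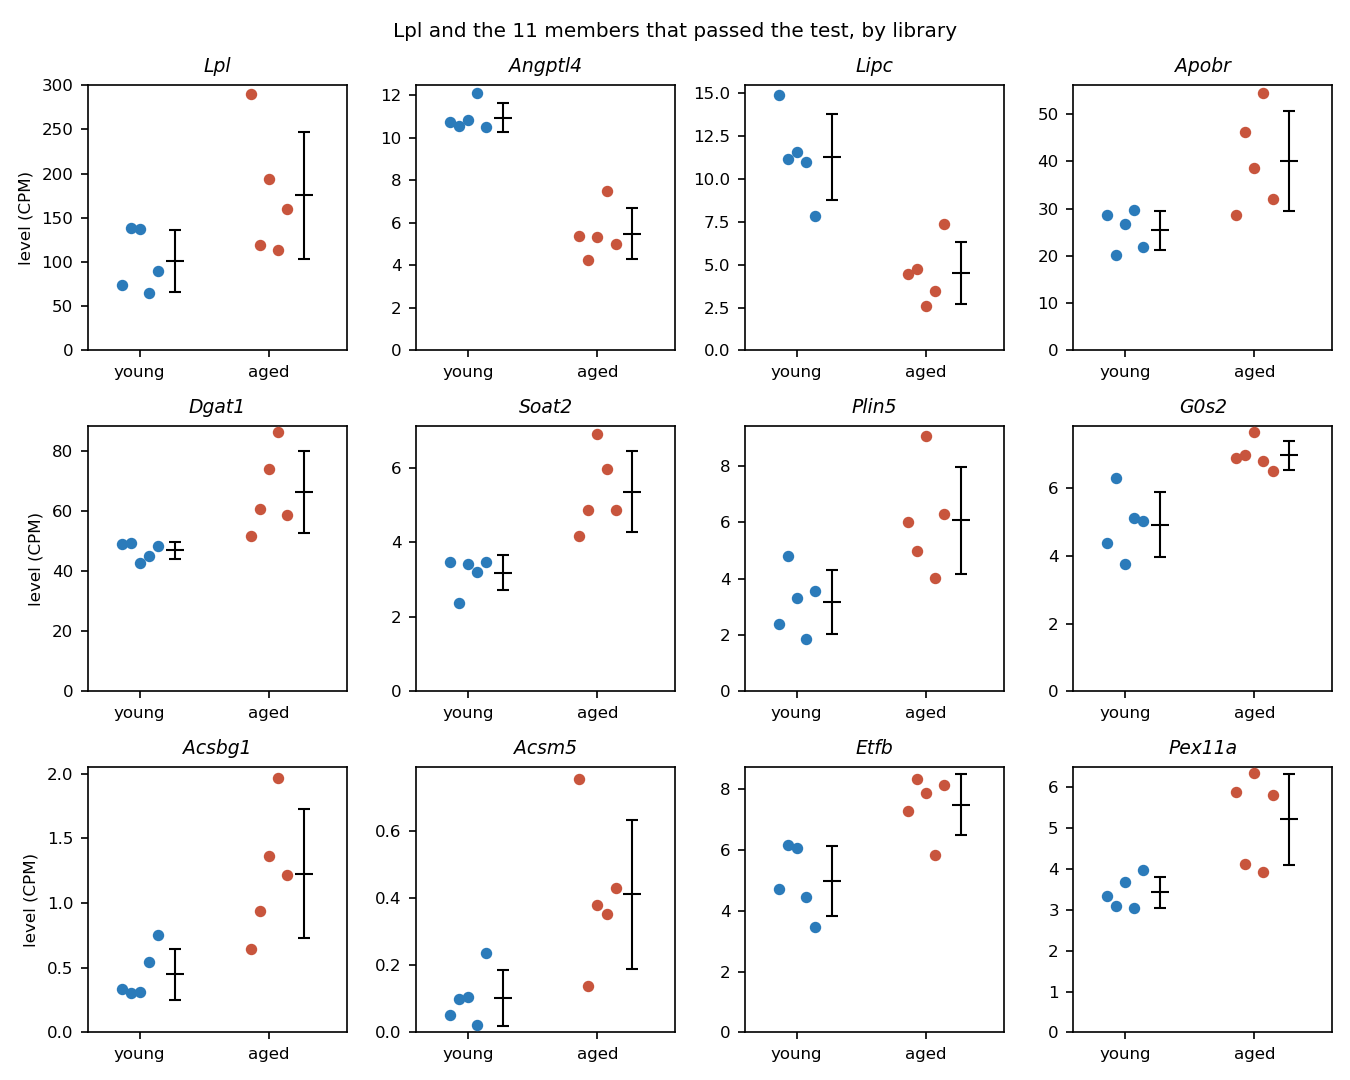
The level in CPM (y axes from 0, scales differ) of Lpl and of the 11 members that passed is drawn for each library, with the mean and SD of each group beside the points. The groups do not overlap for Angptl4, Lipc, Dgat1, Soat2 and G0s2, and they overlap for the others.

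Of the 8 genes that activate fatty acids and bring them into mitochondria, Acsbg1 and Acsm5, both present at low levels, rose. Acsbg1 (chr9:54604877-54661870) encodes an acyl-CoA synthetase of long and very long chains that is known from brain, adrenal gland and testis. Its level was 0.334, 0.302, 0.312, 0.543 and 0.755 CPM in young 1 to 5 and 0.643, 0.935, 1.37, 1.97 and 1.21 CPM in aged 1 to 5. Aged 1 lay below young 5, and the other aged libraries stood above all young ones. The mean rose from 0.449 ± 0.197 to 1.23 ± 0.499 CPM (log2 fold change 1.42 ± 0.34, adjusted p = 0.0242, edgeR), and the call ended without young 1, young 2 or young 3 (adjusted p up to 0.0738, edgeR). Acsm5 (chr7:119519463-119545551), a medium-chain acyl-CoA synthetase gene, was at 0.0513, 0.101, 0.104, 0.0209 and 0.236 CPM in young 1 to 5 and at 0.755, 0.139, 0.380, 0.352 and 0.430 CPM in aged 1 to 5. With these few counts, aged 2 lay below young 5. Its mean rose from 0.103 ± 0.0823 to 0.411 ± 0.222 CPM (log2 fold change 1.96 ± 0.55, adjusted p = 0.0467, edgeR), and with 1 library left out at a time it passed only in the absence of young 5 or aged 2 (adjusted p up to 0.112, edgeR). Acsl1, the long-chain synthetase of fat, liver and muscle, was at 14.3 CPM per kilobase in young bone, far above Acsbg1 (0.125) and Acsm5 (0.0270). In young 1 to 5 it had 129, 176, 142, 159 and 144 CPM, and in aged 1 to 5 it had 189, 166, 191, 125 and 152 CPM (log2 fold change 0.13 ± 0.13). Cpt1a, the gate of the carnitine shuttle in most tissues, was at 6.90 and its muscle form Cpt1b at 0.257 CPM per kilobase in young bone. Their log2 fold changes were -0.15 (standard error 0.13) and 0.51 (standard error 0.31), and neither passed. Mlycd, whose enzyme removes the malonyl-CoA that inhibits this gate, was at 19.3 ± 5.99 and 31.5 ± 10.2 CPM (log2 fold change 0.71 ± 0.24, adjusted p = 0.0955, edgeR), and it passed in 3 of 22 alternatives. Cpt2 and Slc25a20, which complete the shuttle, had log2 fold changes of 0.20 and 0.35.

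All 11 genes of beta-oxidation had a positive log2 fold change and none passed edgeR's test of age, with 3 higher at an unadjusted p under 0.05 and 0 lower. Of all tested genes, 50.9% were positive, and 13.3% were higher and 12.4% lower at that unadjusted p. The median of the 11 genes was 0.29, and the range ran from 0.10 for Echs1 to 0.71 for Acadm. Hadha, the alpha subunit of the trifunctional protein, was at 78.6, 103, 107, 79.0 and 92.5 CPM in young 1 to 5 and at 124, 99.0, 141, 82.6 and 116 CPM in aged 1 to 5. Young 1, young 4 and aged 4 had the lowest values and aged 3 and aged 1 the highest. Acadm, the medium-chain acyl-CoA dehydrogenase, was at 43.0 ± 9.09 and 70.3 ± 22.2 CPM (log2 fold change 0.71 ± 0.22, adjusted p = 0.0658, edgeR), and it passed in 4 of 22 alternatives, with DESeq2 (adjusted p = 0.0172), with the replicate block and without aged 2 or aged 4. Acadl passed in 1 of 22, without aged 4 (adjusted p = 0.0461, edgeR). The very long-chain, long-chain and short-chain enzymes Acadvl, Acadl and Acads had log2 fold changes of 0.29, 0.42 and 0.32. The other 7 genes, which carry out or assist the later steps, were Hadhb (0.32), Hadh (0.28), Echs1 (0.10), Acaa2 (0.13), Eci1 (0.12), Decr1 (0.42) and Hadha (0.29). Summed over the 11 genes, the level was 316, 465, 456, 307 and 429 CPM in young 1 to 5 and 572, 430, 635, 333 and 531 CPM in aged 1 to 5. The groups overlapped, with aged 4 near young 1 and young 4 and aged 2 near young 5. Aged 3 was among the 3 highest libraries in 11 of 11 genes and aged 1 in 9, while young 1 and young 4 were among the 3 lowest in 11 and aged 4 in 10.

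Of the electron transfer flavoprotein genes, which pass electrons from the dehydrogenases to the respiratory chain, Etfb rose. Etfb (chr7:43444083-43457800), the beta subunit, was at 4.72, 6.15, 6.07, 4.45 and 3.47 CPM in young 1 to 5 and at 7.27, 8.32, 7.86, 5.84 and 8.12 CPM in aged 1 to 5. Aged 4 lay below young 2 and young 3. The mean rose from 4.97 ± 1.14 to 7.48 ± 1.0 CPM (log2 fold change 0.59 ± 0.17, adjusted p = 0.0480, edgeR), and with 1 library left out at a time it passed only in the absence of young 3 or aged 4 (adjusted p up to 0.114, edgeR). Its partner Etfa was at 29.5 ± 6.46 and 34.1 ± 8.71 CPM (log2 fold change 0.21 ± 0.19). The annotation places Etfbl across 13673 bases of Etfb on the same strand, and reads that fall in both may not be counted for either, so that the level of Etfb is uncertain. Etfdh, the oxidoreductase that receives the electrons, was at 24.9, 36.5, 34.6, 25.5 and 28.1 CPM in young 1 to 5 and at 39.0, 33.3, 45.8, 25.3 and 37.0 CPM in aged 1 to 5 (log2 fold change 0.27 ± 0.16).

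Among the 4 members grouped as regulators, Pex11a, itself a gene of peroxisome division, rose, while Ppargc1a, Ppara and Ppard did not pass. Pex11a (chr7:79735957-79743131) encodes a membrane protein of peroxisome division, and its level is uncertain where the noncoding gene Gm44706 lies across 1339 of its bases on the other strand (0.382 CPM on average, beside 4.32 CPM of Pex11a). It was at 3.34, 3.10, 3.67, 3.05 and 3.96 CPM in young 1 to 5 and at 5.87, 4.12, 6.34, 3.91 and 5.80 CPM in aged 1 to 5, where aged 4 lay just below young 5. The mean rose from 3.42 ± 0.390 to 5.21 ± 1.11 CPM (log2 fold change 0.60 ± 0.17, adjusted p = 0.0438, edgeR), and with 1 library left out at a time it passed only in the absence of young 5, aged 2 or aged 4 (adjusted p up to 0.117, edgeR). Ppargc1a, a coactivator that raises mitochondrial content, was at 5.62 ± 2.06 and 10.3 ± 4.31 CPM, with aged 3 (16.1 CPM) and aged 1 (12.2 CPM) the highest (log2 fold change 0.88 ± 0.32, adjusted p = 0.117, edgeR). It passed in 2 of 22 alternatives. Ppara, the PPAR of oxidative tissue, was at 2.48 ± 1.46 and 3.71 ± 1.70 CPM (log2 fold change 0.57 ± 0.43). Ppard, the widely expressed form, was at 23.0, 23.6, 25.3, 21.4 and 27.5 CPM in young 1 to 5 and at 24.3, 26.8, 28.8, 28.2 and 25.6 CPM in aged 1 to 5 (log2 fold change 0.15 ± 0.10).

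Many members were highest in aged 3, the library with the largest share of muscle markers (9.35%), which was the highest in 26 of the 57. Aged 1, next in muscle share (8.65%), was the highest in 8, beside 6 for aged 2 and 6 for aged 4. Young 4, with the smallest share (2.85%), was the lowest in 23, while young 1, with 3.51%, was the lowest in 5. Aged 3 also had the fewest counts and the lowest TMM factor (0.830), and young 4 had the highest factor (1.19). Levels in CPM are divided by this factor, and the muscle covariate used below rests on levels scaled in the same way. Ranks of this kind were not taken for genes outside the members, and the part of scaling in them was not tested. With the mean log2 CPM of the muscle markers as a covariate, 4 members were higher and 3 lower, beside 3.79% and 2.90% of all genes. The median log2 fold change of the 57 members was then 0.06 and 37 were positive. Apobr (0.85, edgeR adjusted p = 0.00414), Dgat1 (0.58, 0.0208), Soat2 (0.74, 0.0331) and Acsbg1 (1.59, 0.0190) remained higher, and Angptl4 (-0.89, 0.00291) and Lipc (-1.25, 0.0225) remained lower. Gpam, the acyltransferase gene of the outer mitochondrial membrane, was lower in this fit alone (-0.39, 0.0287). The calls of Plin5 (0.49, edgeR adjusted p = 0.152), G0s2 (0.51, 0.0817), Acsm5 (1.40, 0.142), Etfb (0.48, 0.141) and Pex11a (0.37, 0.183) ended. The log2 fold change of G0s2 did not fall from the 0.50 of the fit of age alone, and its call held in 6 of 22 alternatives. For beta-oxidation 5 of the 11 genes were positive with a median of -0.10, and of 20 other mitochondrial genes kept for reference the median moved from 0.20 to -0.12, with 0 passing in either fit. Lpl moved from 0.79 to 0.34 and Fabp3 from 1.07 to 0.20. With the adipocyte or the slow fibre markers as the covariate, the same 4 members were higher and Angptl4 and Lipc were lower. Of 22088 genes, 806 were higher and 711 lower with the adipocyte markers, and 804 and 644 with the slow fibre markers. Whether muscle left on the bone gave these differences was not tested.

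**Figure D4:**
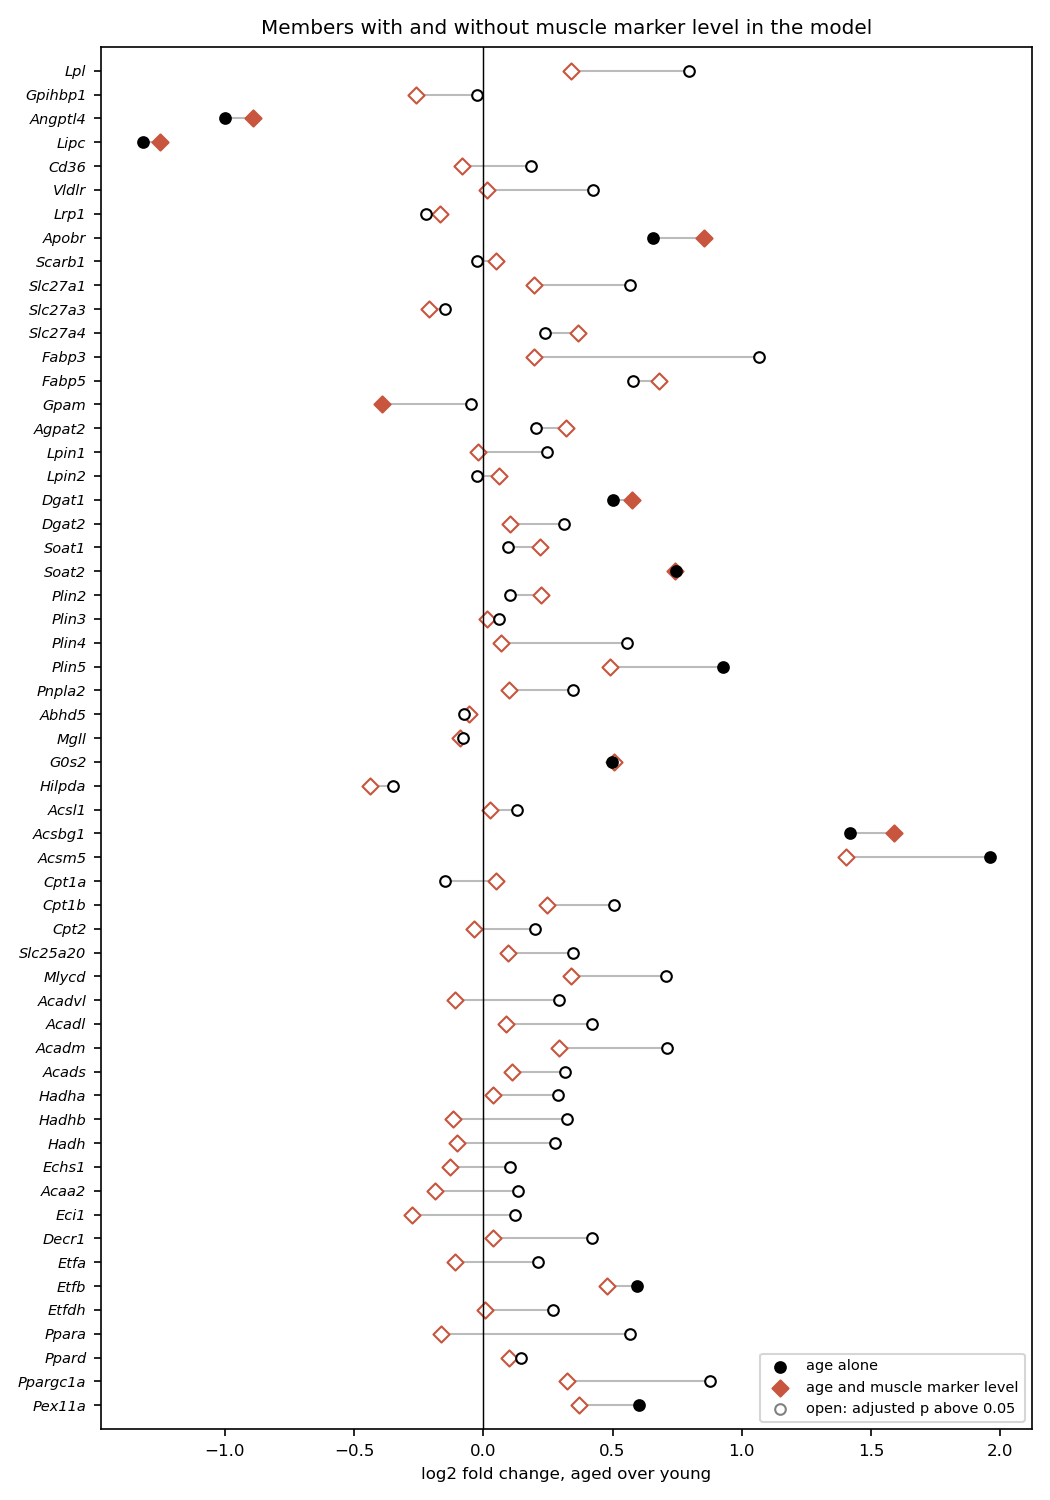
The log2 fold change of each member (x axis, aged over young) is drawn from the fit of age alone (circles) and from the fit of age with the muscle marker level (diamonds), filled where the adjusted p was at most 0.05. Diamonds of the 11 beta-oxidation genes lie left of their circles, while those of Angptl4, Lipc, Apobr, Dgat1, Soat2 and Acsbg1 stay filled.

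**Figure D5:**
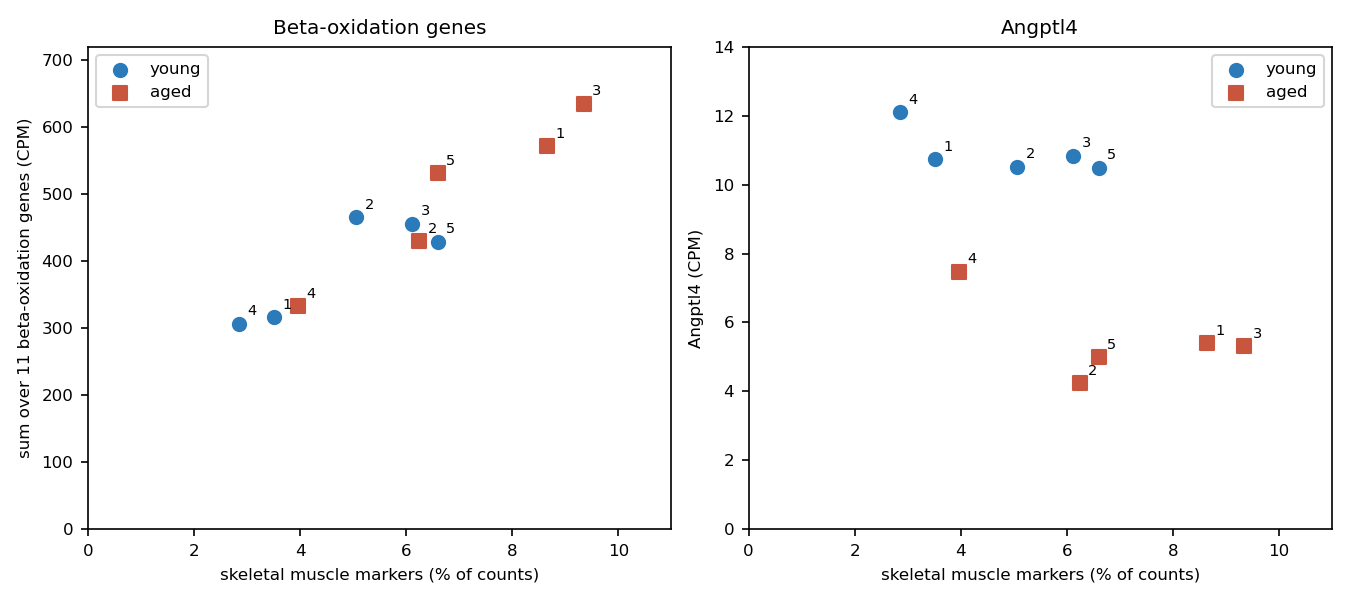
For each library the x axis gives the share of counts of skeletal muscle markers in percent, and the y axes give the summed level of the 11 beta-oxidation genes (left) and the level of Angptl4 (right) in CPM. The beta-oxidation sum is lowest in the 3 libraries with the smallest muscle share and highest in the 2 with the largest, while for Angptl4 the 5 aged libraries lie below the 5 young ones.

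Other genes of the pathway, outside the 57 members except for Lpin1 on the list of regulators, were read from lists by step. Of 20 tested genes of storage, 2 were higher, the carboxylesterase gene Ces1d (2.30 ± 0.962 to 6.28 ± 1.67 CPM, log2 fold change 1.44, adjusted p = 0.00765, edgeR) and Lipe, which encodes the hormone-sensitive lipase and is also on the adipocyte list (17.0 ± 2.57 to 24.3 ± 3.46 CPM, log2 fold change 0.51, adjusted p = 0.0330, edgeR), and 0 were lower. Ces1d belongs to a cluster of near-identical genes that may share reads, so its level is uncertain. None of 26 further genes of mitochondrial oxidation passed, and the thioesterase gene Acot2 came closest (log2 fold change 0.48, adjusted p = 0.0520, edgeR). At an unadjusted p under 0.05, 8 of the 26 were higher and 0 lower, beside 13.3% and 12.4% of all genes. Of the 20 genes on the list of regulators, the member Lpin1 among them, the nuclear receptor gene Esrrb was higher (log2 fold change 1.71, adjusted p = 0.0169, edgeR), Foxo1 was lower (-0.36, 0.0353) and Esrra did not pass (0.59, 0.0511). With the muscle markers as a covariate Ces1d (1.14, edgeR adjusted p = 0.0210) passed, while Lipe (0.0623), Esrrb (0.0647) and Foxo1 (0.0592) did not.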

How the data were processed

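The files hold RNA-seq of flushed femurs of 5 young and 5 aged male mice, each library from 1 mouse. The deposited table holds whole-number counts per gene. The authors derived these counts from paired-end reads by trimming with Cutadapt, aligning with STAR to GRCm38.p6 and counting with featureCounts, with ribosomal RNA removed and polyadenylated RNA selected beforehand. The labels name the human build hg38, but the identifiers are of mouse Ensembl genes, and 38842 of 38962 are in GENCODE vM21 (56 of the 57 members at the same position). Neither the annotation release nor the strand setting of the counting is given in the sources used here. Of the 57 members, 23 overlap another gene, and for 11 the overlapping genes sum to over 10% of the member's level. Members that did not pass are among them, such as Mgll with Gm44005 on the same strand (10.6 beside 70.2 CPM) and Acadvl with Dvl2 on the other (16.6 beside 34.8 CPM). Their levels are uncertain as well. The deposited table also gives the length of each feature, used for levels per kilobase, and all its 10 count columns were mapped to mice by their labels.

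Genes were kept by the filter of edgeR 4.0.16 (minimum count 10, minimum total count 15), scaled by TMM and compared by a robust quasi-likelihood test in R 4.3.3, with Benjamini-Hochberg adjustment over all tested genes. The standard error is the log2 fold change over the root of the F statistic. Single values per library were compared by an exact permutation test. Ratios of members, with a pseudocount of 0.5 counts, are described without a test. Covariates are mean log2 CPM (prior count 2) of a marker list. Alternatives were other scalings, filters, thresholds, covariates and tests (DESeq2 1.42.0, limma-voom with limma 3.58.1), the replicate number as a block and the omission of each library. Per-library levels are given for members that passed and for the member of highest mean CPM in each role, and up to 3 genes of smallest p from each other list are named. The members and lists were chosen with earlier results of these data known, and the study's own tables of called genes had been read. Neither the direction of a member nor the share of members called is therefore independent support. Lists were read as counts of genes, with no test of a list. Some genes and lists outside the members are not reported here. The steps were tested on simulated counts. Depth sets the counting error, and p-values weigh the difference between the age groups against the spread between mice. Python 3.11.15, pandas 2.3.3, scipy 1.17.1 and matplotlib 3.10.9 made the tables and figures.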

Additional observations from a re-analysis of the deposited data

Results flagged for a closer look

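In 120 groups of 5 libraries (the levels of the 57 members and the shares of 3 marker lists, in young and in aged bone), the highest or lowest library was set against the other 4, and 4 stood apart by Dixon's ratio of the gap to the range (critical value 0.71, which chance exceeds in about 1 of 20 groups). Angptl4 was at 12.11 CPM in young 4 and between 10.49 and 10.85 CPM in the other young libraries. Fabp5 was at 10.23 CPM in aged 2, with the other aged libraries between 4.82 and 6.304 CPM. Soat2 was at 2.368 CPM in young 2, with the other young libraries between 3.215 and 3.467 CPM. Mlycd was at 48.96 CPM in aged 3, the library with the largest share of muscle markers, with the others of its group between 22.96 and 30.14 CPM. Without young 4 Angptl4 still passed, while without young 2 Soat2 did not (adjusted p = 0.0567, edgeR).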

How the results depend on the processing

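The 9 members called higher became 1 with scaling by total counts alone, which moved the median log2 fold change of all genes from 0.01 to -0.16, and 4 with the muscle, slow fibre or adipocyte markers as a covariate, while leaving out each library in turn gave 1 to 7. Other scalings, filters and tests gave 7 to 13. The 13 were with DESeq2, which called 1546 of 25339 genes higher, beside 812 of 22088 in the main fit. Over the whole table, the others called 710 to 906 genes higher. An adjusted p of at most 0.1 gave 12, for which the count over all genes is not given here. The 2 lower members were 2 in all alternatives except 3 with the muscle covariate. Same-numbered young and aged libraries had correlations of their deviations between -0.154 and 0.169. The labels name no pairing, and these correlations cannot exclude one. The replicate block gave 10 higher and 2 lower, beside 957 higher and 675 lower of 22088 genes. The share of muscle markers, 2.13 percentage points higher in aged bone, ranged from 1.54 to 2.88 without each library in turn, passing without aged 4 (exact permutation p = 0.0317). The share of counts of adipocyte markers, 0.00336 points higher, ranged from -0.00364 to 0.00784, negative without aged 1. Low counts limit Acsm5 and Acsbg1, which were not tested under the filter of 1 CPM in 5 libraries.

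Signs that turned were of members that did not pass. With total counts alone these were Cd36 (-0.0079), Soat1 (-0.059), Plin2 (-0.056), Plin3 (-0.090), Acsl1 (-0.053), Echs1 (-0.069), Acaa2 (-0.053), Eci1 (-0.061) and Ppard (-0.018). With the muscle covariate they were Cd36 (-0.084), Scarb1 (0.050), Lpin1 (-0.021), Lpin2 (0.059), Cpt1a (0.049), Cpt2 (-0.035), Acadvl (-0.11), Hadhb (-0.12), Hadh (-0.10), Echs1 (-0.13), Acaa2 (-0.19), Eci1 (-0.27), Etfa (-0.11) and Ppara (-0.17). With the slow fibre covariate they were Cd36 (-0.34), Scarb1 (0.095), Lpin2 (0.015), Acsl1 (-0.0089), Hadhb (-0.055), Echs1 (-0.057), Acaa2 (-0.11), Eci1 (-0.14) and Etfa (-0.071). With the adipocyte covariate they were Cd36 (-0.075), Scarb1 (0.031), Lpin2 (0.021) and Eci1 (-0.00014). Without each library in turn, log2 fold changes ran from -0.12 to 0.074 for Gpihbp1, -0.028 to 0.38 for Cd36, -0.082 to 0.055 for Scarb1, -0.18 to 0.051 for Gpam, -0.063 to 0.029 for Lpin2, -0.0073 to 0.17 for Plin2 and -0.0052 to 0.25 for Eci1, the log2 ratio Cd36/Scarb1 from -0.13 to 0.48, and the log2 ratio Dgat2/Dgat1 from -0.29 to 0.039. The cause was not tested.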
